A study of Mus musculus with 6 samples.

Results

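The aminoacyl-tRNA synthetases of the mouse, the enzymes that attach each amino acid to its transfer RNA, were followed in bone marrow progenitors with and without c-myc and N-myc. The list held 36 loci of this enzyme family, of which 20 encode cytosolic and 16 mitochondrial enzymes. A value was obtained for 35 of them, 19 cytosolic and all 16 mitochondrial, among 18193 genes tested. Dars, the cytosolic aspartyl-tRNA synthetase, was not analysed here. The experimental mice (dKO) carried MxCre together with floxed alleles of both genes (c-myc flox2 N-myc flox2). The control mice carried the same floxed alleles and no MxCre. Both groups had a mixed background, were 8 weeks old and received 2 daily injections of pI-pC, an RNA mimic that induces interferon and thereby the Mx promoter driving Cre. The last injection came 3 days before sacrifice. Lin-Sca1+CD150+CD48+ bone marrow cells, named committed progenitors by the submitters, were sorted and profiled on Affymetrix mouse arrays, with 3 arrays per group. Each dKO array held a pool of 3 mice and each control array a pool of 2 mice. MxCre was present only in dKO mice, so an effect of the transgene and an effect of the deletion cannot be told apart. The tissue label of control 1 named long-term stem cells, although its title and sort gate matched those of the other arrays.

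Each synthetase recognises the transfer RNAs of its own amino acid and loads them at the cost of ATP. The cytosolic enzymes serve translation of nuclear-encoded messages, and several of them assemble into a multi-synthetase complex held together by scaffold proteins. The mitochondrial enzymes are encoded in the nucleus, imported, and charge the transfer RNAs of mitochondrial translation. MYC proteins are known as broad activators of genes for protein synthesis, and many cytosolic synthetase genes are known targets of ATF4, the transcription factor of the amino acid and stress response.

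The deletion was visible in the deposited log2 signals. Myc had 7.99, 7.87 and 7.44 in the 3 dKO pools, against 10.79, 10.95 and 10.47 in the 3 control pools, a fall of 7.84-fold (log2 fold change -2.97 ± 0.21 SE, adjusted p = 0.00014 from limma with Benjamini-Hochberg adjustment over all genes). Of the Mycn probe sets, the one with the largest difference had 4.42, 3.28 and 4.47 in dKO, against 9.57, 8.93 and 9.48 in control. The brightest one differed by -0.83 (adjusted p = 0.133 in the test over genes). The remaining one, a dim probe set, differed in the other direction by 0.34 (adjusted p = 0.402 with every probe set tested on its own). The labels do not say whether these probe sets lie in deleted exons. The arrays had medians of 5.91 to 5.94 and correlated with each other at 0.960 to 0.988 over genes. Xist signal was present in dKO 1 (10.50) and control 1 (9.10), against 5.03 to 5.86 in the other arrays. Values without these pools are given beside several results that change, though not beside all. The closing section also gives Aars with the Xist level as a covariate. In these bulk samples, fewer cells of a type and less RNA per cell cannot be told apart. Precision is limited by having only 3 arrays in each group.

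Of the 35 synthetase genes measured, 1 was higher in dKO cells and 0 were lower at an adjusted p of 0.05 (2.86% of members), and an unadjusted p under 0.05 was reached by 5. Across all 18193 genes, 5.97% passed the same threshold, 3.12% as higher and 2.85% as lower, so the synthetases passed no more often than genes at large. The gene that passed was Aars, the cytosolic alanyl-tRNA synthetase. The log2 fold changes (dKO minus control) of the 35 members had a median of -0.15, with 13 above 0 and 22 below, beside a median of 0.05 over all genes, of which 10481 were above 0 and 7712 below. With only the 9096 genes brighter than the median gene tested, 547 were higher and 584 lower, and the median over these genes was -0.01. The 3 dKO values lay entirely above the 3 control values in 4 members (11.4%) and entirely below them in 9 members (25.7%). Over all genes these shares were 12.7% and 10.7%.

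The precision allowed a bound on the brightest probe set of most members, with each gene taken singly and no adjustment over genes. The 95% interval of the log2 fold change lay inside a 2-fold change in either direction for 31 of the 35 members, 18 cytosolic and 13 mitochondrial, against 79.7% of all genes. The 4 members whose interval reached past it were Aars, upwards, and the mitochondrial Fars2, Mars2 and Nars2, downwards. The interval included 0 in 30 members, which does not show that their levels were equal. These intervals do not bound other probe sets. A further one of Ears2 differed by -1.21, and a dim one of Cars2 by 0.84 ± 0.26 (SE).

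**Figure D1:**
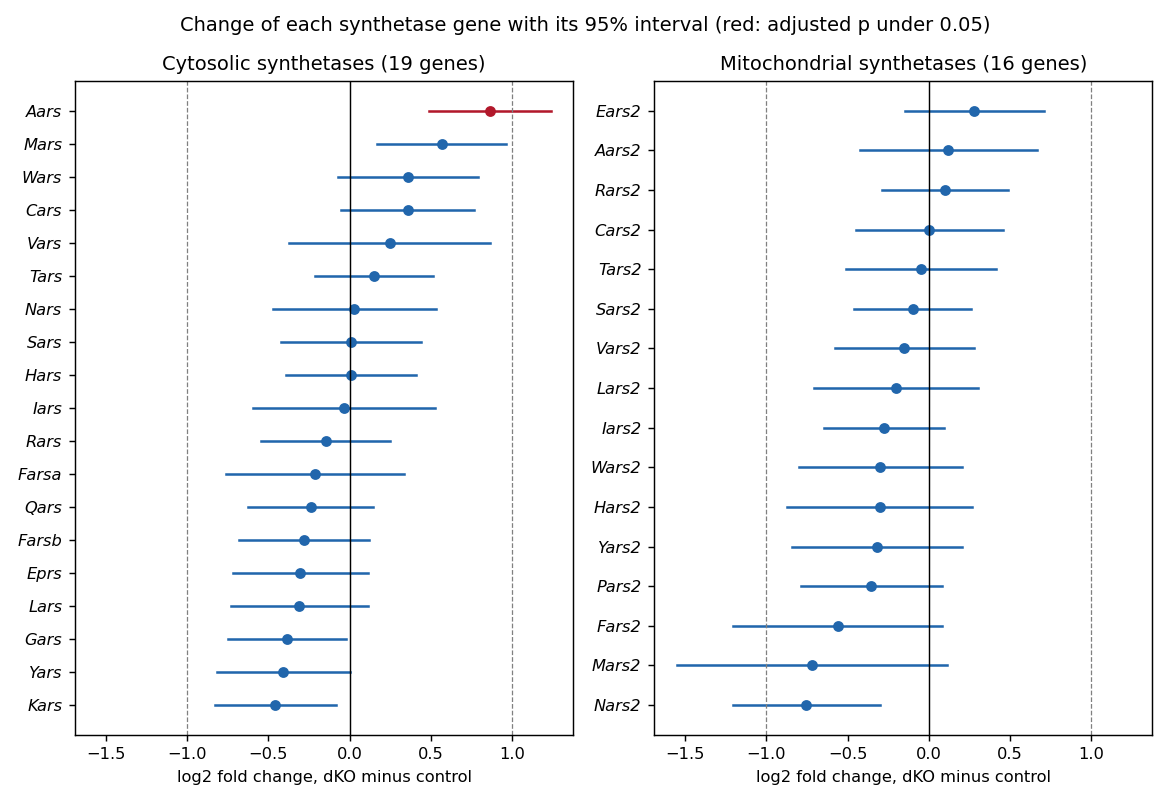
Log2 fold change (dKO minus control, horizontal axis) of the 35 measured synthetase genes with 95% intervals from limma over 3 dKO and 3 control arrays, cytosolic and mitochondrial enzymes separately, with dashed lines at a 2-fold change. Aars is the only member past the threshold (0.86), 22 members lie below 0, and the lowest estimates are those of Nars2 (-0.76) and Mars2 (-0.72).

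Aars had log2 signals of 8.82, 8.73 and 8.82 in dKO pools, against 7.84, 8.10 and 7.84 in control pools. The lowest dKO value was above the highest control value. The means were 8.79 ± 0.05 in dKO and 7.93 ± 0.15 in control (SD, n = 3 each), a rise of 1.82-fold (log2 fold change 0.86 ± 0.17 SE, adjusted p = 0.0159). A further probe set of Aars differed by 0.95, and both passed when every probe set was tested on its own (adjusted p = 0.0236 for the brighter and 0.0166 for the other). A probe set annotated to both Aars and the neighbouring Exosc6 was left out. The call was lost with dKO 1 left out (adjusted p = 0.0565), and likewise with control 1 (0.0652) or control 3 (0.0818) left out. The log2 fold change stayed between 0.82 and 0.95 with any 1 array left out. With dKO 1 and control 1 both left out it was 0.81 (adjusted p = 0.162).

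The promoter sequences of Aars and of the members with the smallest changes that had an entry are shown because Aars was the member that passed the threshold and because the promoters differ in the letters bound by ATF4 and by MYC. They are RefSeq sequences of build GRCm38.p6, 250 bases before to 50 bases after the annotated start site, printed 5′ to 3′ on the strand of the gene. Aars lies at chr8:111033592-111033891 on the plus strand, Cars2 (mitochondrial cysteinyl-tRNA synthetase) at chr8:11550722-11551021 on the minus strand, Sars (cytosolic seryl-tRNA synthetase) at chr3:108445210-108445509 on the minus strand, and Iars (cytosolic isoleucyl-tRNA synthetase) at chr13:49681880-49682179 on the plus strand. Capitals mark the E-box CACGTG, a palindrome bound by MYC with its partner MAX, and the amino acid response element TGATGNAA, which is bound by ATF4 and was searched on both strands. In these promoters the element lies on the opposite strand and so appears as its reverse complement.
Aars promoter: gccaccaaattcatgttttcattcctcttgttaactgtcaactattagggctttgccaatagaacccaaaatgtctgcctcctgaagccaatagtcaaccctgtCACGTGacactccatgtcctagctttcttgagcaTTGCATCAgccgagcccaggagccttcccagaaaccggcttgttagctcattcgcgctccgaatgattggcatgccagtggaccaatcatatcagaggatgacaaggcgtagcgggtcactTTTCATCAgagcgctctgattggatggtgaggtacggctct
Cars2 promoter: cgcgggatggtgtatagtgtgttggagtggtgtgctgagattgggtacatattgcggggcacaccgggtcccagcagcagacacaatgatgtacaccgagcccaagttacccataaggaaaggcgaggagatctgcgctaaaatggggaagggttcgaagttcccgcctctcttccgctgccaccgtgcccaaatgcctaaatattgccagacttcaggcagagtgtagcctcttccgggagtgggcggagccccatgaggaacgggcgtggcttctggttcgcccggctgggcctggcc
Sars promoter: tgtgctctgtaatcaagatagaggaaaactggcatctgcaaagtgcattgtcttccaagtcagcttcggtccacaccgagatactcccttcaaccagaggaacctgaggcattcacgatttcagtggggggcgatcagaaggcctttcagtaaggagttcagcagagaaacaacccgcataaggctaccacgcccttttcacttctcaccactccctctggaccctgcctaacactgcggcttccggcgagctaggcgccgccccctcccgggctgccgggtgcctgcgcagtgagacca
Iars promoter: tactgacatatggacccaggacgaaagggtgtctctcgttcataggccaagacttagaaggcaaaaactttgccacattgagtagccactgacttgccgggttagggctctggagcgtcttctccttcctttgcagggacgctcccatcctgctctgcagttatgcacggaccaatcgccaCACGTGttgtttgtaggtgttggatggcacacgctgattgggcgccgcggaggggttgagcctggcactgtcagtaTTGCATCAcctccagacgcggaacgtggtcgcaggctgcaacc

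Positions are counted from 1 at the first transcribed base, with -1 before it. The Aars gene is annotated at chr8:111027778-111055569, so the start site of the table lies inside its span. The promoter held the element at positions -112 to -105 and 10 to 17 and the E-box at -146 to -141. Iars held the element at 8 to 15 and the E-box at -69 to -64, and its log2 signal was 9.40, 9.09 and 8.81 in dKO, against 8.65, 9.37 and 9.39 in control. These groups overlapped, and the log2 fold change was -0.04 ± 0.25 (SE, adjusted p = 0.968). It ranged from -0.28 (without control 1) to 0.11 (without dKO 3) with 1 array left out, and was -0.43 (adjusted p = 0.581) without dKO 1 and control 1 together. The promoters of Cars2 (0.00 ± 0.20 SE) and Sars (0.01 ± 0.19 SE) held neither motif in this window. Other probe sets of Cars2 differed by 0.085 and, at a dimmer signal, by 0.84 (adjusted p = 0.132 with every probe set tested on its own). The mean of the Cars2 probe sets differed by 0.31 (adjusted p = 0.403).

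A promoter entry was found for 26 of the 35 members, 12 cytosolic and 14 mitochondrial. The element was present in promoters of 5 of the 12 cytosolic genes (41.7%) and of 0 of the 14 mitochondrial genes. In the RefSeq table it was present in 1304 of 32851 promoters (3.97%). The E-box was present in promoters of 4 cytosolic genes (33.3%), Aars, Farsb, Iars and Tars, and of 1 mitochondrial gene (7.14%), Ears2. In the RefSeq table it was present in 2349 promoters (7.15%). Members were counted by gene, over all entries of the gene, and the table by promoter, so the shares differ in unit. The motifs did not overlap each other. The windows around the 6 matches to the element are shown because these genes share it while their changes differ. Each is printed in the direction of the element, with its letters in capitals.
Aars upstream element: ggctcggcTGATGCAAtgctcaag
Aars downstream element: gagcgctcTGATGAAAagtgaccc
Gars element: ccggtgcaTGATGAAAtagcgcag
Iars element: tctggaggTGATGCAAtactgaca
Tars element: taaccagcTGATGCAAcgggactc
Yars element: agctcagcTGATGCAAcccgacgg

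The 5 genes with the element did not move together. Aars was higher by 0.86 and Tars, the threonyl-tRNA synthetase, differed by 0.15. Iars differed by -0.04, Gars by -0.39 and Yars by -0.41. Apart from Aars none of them passed. A match to the letters is a description of the sequence and says nothing of occupancy in these cells.

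**Figure D2:**
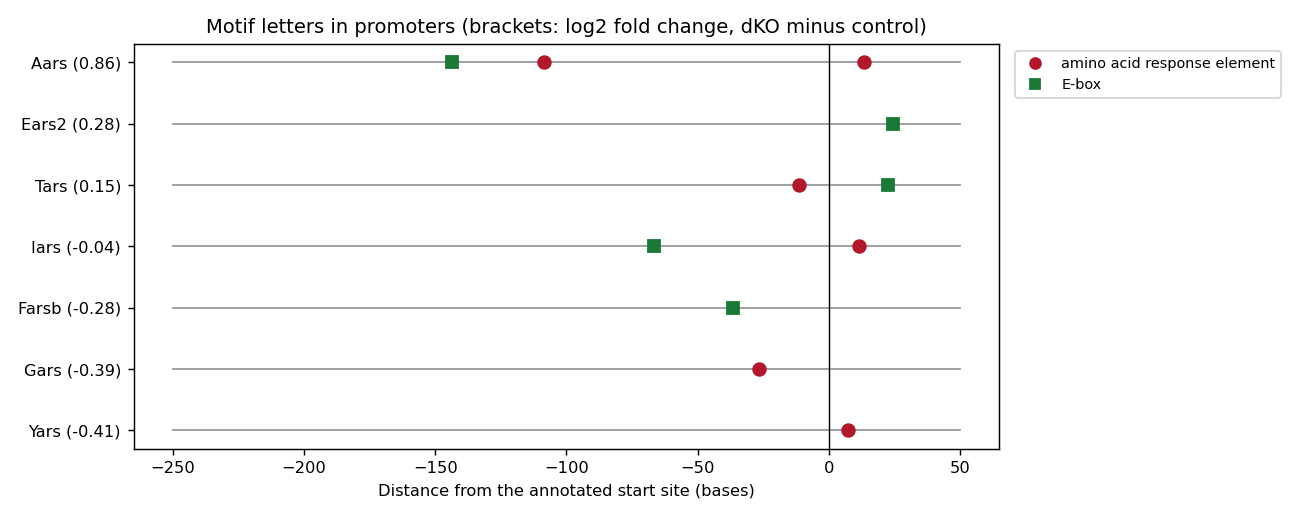
Positions of the amino acid response element (TGATGNAA, circles) and the E-box (CACGTG, squares) in bases from the annotated start site, in the promoters of members that hold either motif, ordered by log2 fold change (dKO minus control, in brackets). Aars at 0.86 and Yars at -0.41 both hold the element, and Aars holds it at 2 positions.

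The other cytosolic synthetases fell on both sides of 0. Among the 19, the median log2 fold change was -0.04, and this sign was not stable, since it was 0.01 with array weights, without control 3 and without probe sets of shared sequence. The estimates ran from -0.46 to 0.86. The groups did not overlap in 4 members that were higher (21.1%, against 12.7% of all genes) and in 5 that were lower (26.3%, against 10.7%).

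The multi-synthetase complex joins several of these enzymes, and 7 of its 8 listed enzymes were measured. None passed, 1 was above 0 and 6 were below, with a median of -0.24. The exception was Mars, the methionyl-tRNA synthetase, which also charges the initiator transfer RNA (currently named Mars1). It had 9.63, 9.58 and 9.84 in dKO pools, against 8.95, 9.29 and 9.11 in control pools. All dKO values were above all control values. The difference was 1.48-fold (0.57 ± 0.18 SE, unadjusted p = 0.0101), but it did not pass over all genes (adjusted p = 0.108).

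Kars, the lysyl-tRNA synthetase whose gene also supplies the mitochondrial enzyme through splicing, had the lowest cytosolic estimate. Its values were 7.71, 7.69 and 7.54 in dKO, against 7.97, 8.21 and 8.12 in control. The dKO values were all below the control values, by 1.37-fold on average (-0.46 ± 0.17 SE, unadjusted p = 0.0213, adjusted p = 0.168). Eprs, which joins glutamyl and prolyl synthetase activities in 1 protein, had 8.95, 9.05 and 8.80 in dKO, against 9.50, 9.13 and 9.07 in control. Qars, the glutaminyl-tRNA synthetase, had 10.37, 10.14 and 10.49 in dKO, against 10.53, 10.56 and 10.63 in control. In both genes the dKO values lay below the control values without overlap, by small amounts that did not pass (-0.30 ± 0.18 SE, adjusted p = 0.456 for Eprs, and -0.24 ± 0.17 SE, adjusted p = 0.543 for Qars). Lars, the leucyl-tRNA synthetase, had 9.37, 9.49 and 9.34 in dKO and 9.63, 10.01 and 9.48 in control, with a single dKO value just above the lowest control value (-0.31 ± 0.19 SE, adjusted p = 0.459). Rars, the arginyl-tRNA synthetase, differed by -0.15 ± 0.18 (SE, adjusted p = 0.755) with overlapping groups.

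The 3 listed scaffold proteins were all measured, and 0 of 3 passed in either direction. Their median log2 fold change was -0.47. Aimp1 differed by -0.47 ± 0.17 (SE, adjusted p = 0.16) and Eef1e1 by -0.49 ± 0.20 (SE, adjusted p = 0.227), in both cases with the dKO values below all control values. Scaffolds and most enzymes of the complex thus had estimates below 0, none of which passed the threshold.

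Outside the complex, 12 cytosolic synthetases were measured, with a median of 0.02 and Aars as the only one past the threshold. Gars, the glycyl-tRNA synthetase, which also serves mitochondria, had 9.29, 9.38 and 9.20 in dKO, against 9.76, 9.69 and 9.57 in control. Yars, the tyrosyl-tRNA synthetase, had 7.22, 7.07 and 7.001 in dKO, against 7.25, 7.69 and 7.57 in control. Both were lower in dKO without overlap, but neither passed. The difference was -0.39 ± 0.16 (SE, adjusted p = 0.244) for Gars and -0.41 ± 0.18 (SE, adjusted p = 0.278) for Yars. Without dKO 1 and control 1 together it was -0.59 for Yars (adjusted p = 0.35).

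Cars, the cysteinyl-tRNA synthetase, had 7.22, 6.75 and 6.89 in dKO, against 6.67, 6.59 and 6.53 in control. Wars, the tryptophanyl-tRNA synthetase and a known interferon-inducible gene, had 7.82, 7.99 and 8.17 in dKO, against 7.81, 7.36 and 7.74 in control. Their dKO values were above all control values, with differences of 0.36 ± 0.18 (SE, adjusted p = 0.352) for Cars and 0.36 ± 0.19 (SE, adjusted p = 0.385) for Wars. In neither gene did the other probe sets show the same size of difference: it was -0.02 for the second Cars probe set and 0.00 to 0.14 for the other 3 of Wars.

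In the remaining cytosolic members the groups overlapped and no adjusted p was below 0.4. Farsa and Farsb, the catalytic and the tRNA-binding subunit of phenylalanyl-tRNA synthetase, differed by -0.21 ± 0.24 and -0.28 ± 0.18 (SE). Hars (histidyl, 0.01 ± 0.18 SE) and Nars (asparaginyl, 0.03 ± 0.22 SE) lay at 0 within their errors. Tars (0.15 ± 0.16 SE) and Vars (valyl, 0.25 ± 0.28 SE) lay above 0 by no more than their standard error.

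The 12 cytosolic synthetases known as ATF4 targets had a median of 0.02, with 7 above 0 and 5 below. The groups did not overlap in 4 of them that were higher (33.3%, against 12.7% of all genes) and 3 that were lower (25%, against 10.7%). Aars alone passed. The 7 other cytosolic members had a median of -0.21 and none passed. By catalytic fold, the 18 class I enzymes and the 16 class II enzymes had medians of -0.15 and -0.16, and Eprs, which holds an enzyme of each class, is left out of this split.

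**Figure D3:**
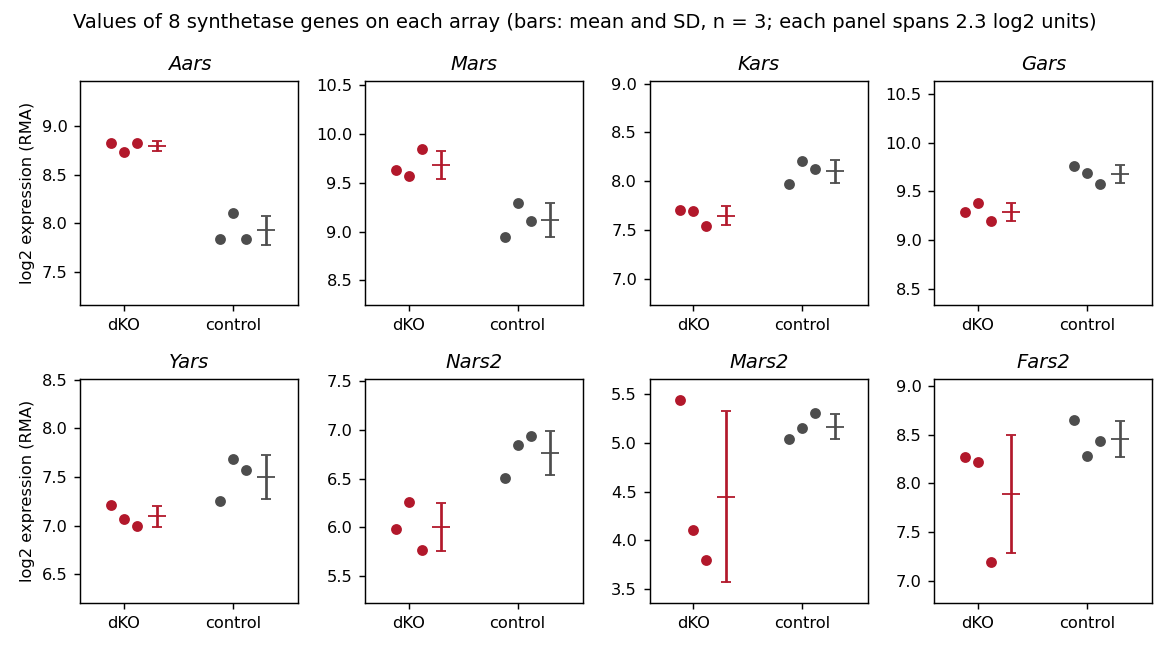
Log2 signal in each array (3 dKO points and 3 control points per gene) of 8 members, with bars for the mean and SD and a vertical axis of the same span in every panel. Aars and Mars lie higher in all dKO pools, Kars, Gars, Yars, Nars2 and Fars2 lie lower in all dKO pools, and the dKO values of Mars2 spread around those of control.

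The mitochondrial synthetases had mostly negative estimates, and none of the 16 passed in either direction. Their median log2 fold change was -0.24, with 4 above 0 and 12 below, and it lay between -0.25 and -0.12 under every alternative run. The range was -0.76 to 0.28. In 4 members (25%, against 10.7% of all genes) the dKO values lay below all control values, and in 0 above them (against 12.7%). Array by array, the median deviation of the 16 genes from their own means was 0.06, -0.10 and -0.11 in dKO pools, against 0.00, 0.19 and 0.10 in control pools. The dKO 1 pool thus overlapped the control pools on this measure.

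Nars2, the mitochondrial asparaginyl-tRNA synthetase, came closest to the threshold in the test over genes, which used the brightest probe sets. It had 5.98, 6.27 and 5.77 in dKO, against 6.50, 6.85 and 6.94 in control. Every dKO value was below every control value, by 1.69-fold on average (-0.76 ± 0.20 SE, unadjusted p = 0.00423, adjusted p = 0.062). The other probe set of the gene differed by 0.02, the mean of both by -0.37 (adjusted p = 0.338), and array weights gave the brighter one an adjusted p of 0.0301.

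Mars2, the mitochondrial methionyl-tRNA synthetase, had 5.44, 4.10 and 3.80 in dKO, against 5.04, 5.15 and 5.31 in control. The dKO 1 value was the highest of all 6 arrays, while dKO 2 and dKO 3 were the lowest, so the groups overlapped with an SD of 0.87 in dKO. The difference was -0.72 ± 0.37 (SE, adjusted p = 0.362). Without dKO 1 it was -1.22 (adjusted p = 0.0161), and without dKO 1 and control 1 together it was -1.28 (adjusted p = 0.0293). This probe set was dim, at percentile 26.5 of the levels of all genes. The other probe set of Mars2 was dimmer still and differed by -0.27 (adjusted p = 0.458 with every probe set tested on its own).

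Fars2, the mitochondrial phenylalanyl-tRNA synthetase, had 8.27, 8.22 and 7.20 in dKO, against 8.65, 8.29 and 8.43 in control. The groups did not overlap, but dKO 3 stood well below the other dKO pools, and the difference of -0.56 ± 0.29 (SE, adjusted p = 0.356) did not pass. Without dKO 3 it was -0.21 (adjusted p = 0.594). The other probe set of Fars2 differed by -0.73. Iars2, for isoleucine, had 7.95, 8.03 and 7.95 in dKO, against 8.31, 8.35 and 8.09 in control, and Pars2, for proline, had 4.77, 5.03 and 4.97 in dKO, against 5.04, 5.58 and 5.21 in control. Both were lower in dKO without overlap (-0.27 ± 0.16 SE, adjusted p = 0.449 for Iars2, and -0.35 ± 0.19 SE, adjusted p = 0.397 for Pars2).

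In the other mitochondrial members the groups overlapped. Yars2 (-0.32 ± 0.23 SE), Hars2 (-0.30 ± 0.25 SE) and Wars2 (-0.30 ± 0.22 SE) had the lowest estimates among them, with adjusted p-values of 0.559, 0.625 and 0.568. Lars2 (-0.20 ± 0.22 SE), Vars2 (-0.15 ± 0.19 SE), Sars2 (-0.10 ± 0.16 SE) and Tars2 (-0.05 ± 0.20 SE) followed below 0. Above 0 were Ears2 (0.28 ± 0.19 SE), Aars2 (0.12 ± 0.24 SE), Rars2 (0.10 ± 0.17 SE) and Cars2. Rars2 was at -0.05 (adjusted p = 0.972) without dKO 1 and control 1 together. The estimate of Ears2, for glutamate, depended on the probe set, since its other 3 differed by -0.50, -0.69 and -1.21. With every probe set tested on its own, these had adjusted p-values of 0.253, 0.352 and 0.0549, and the brightest of Nars2 had 0.0809. The mean of the Ears2 probe sets differed by -0.53 (adjusted p = 0.0646).

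Several members had probe sets that disagreed. The 35 members were covered by 72 probe sets, of which 2, both of Aars, were higher in dKO and 0 lower when each was tested on its own. Among the 23 members with more than 1 probe set, 9 had probe sets of opposite sign. The direction of a member below the threshold is therefore that of its brightest probe set only.

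Enzymes for the same amino acid could be compared across compartments in 17 pairs covering 16 amino acids. The mitochondrial member had the lower log2 fold change in 13 pairs. In 7 pairs the mitochondrial estimate was below 0 and the cytosolic one above it, in 6 both were below 0, in 2 both were above 0, and in 2 the mitochondrial one was above 0 and the cytosolic one below it. The gap was widest for methionine (-0.72 for Mars2 and 0.57 for Mars), followed by asparagine (-0.76 for Nars2 and 0.03 for Nars) and alanine (0.12 for Aars2 and 0.86 for Aars). The Mars2 value is that of a dim probe set whose groups overlapped. The order was opposite for glutamate, arginine, leucine and tyrosine. Across the 17 pairs Pearson's r was 0.09 and Spearman's rho 0.13, as a description only, since all pairs come from the same 6 arrays and Eprs and Fars2 each enter 2 pairs.

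**Figure D4:**
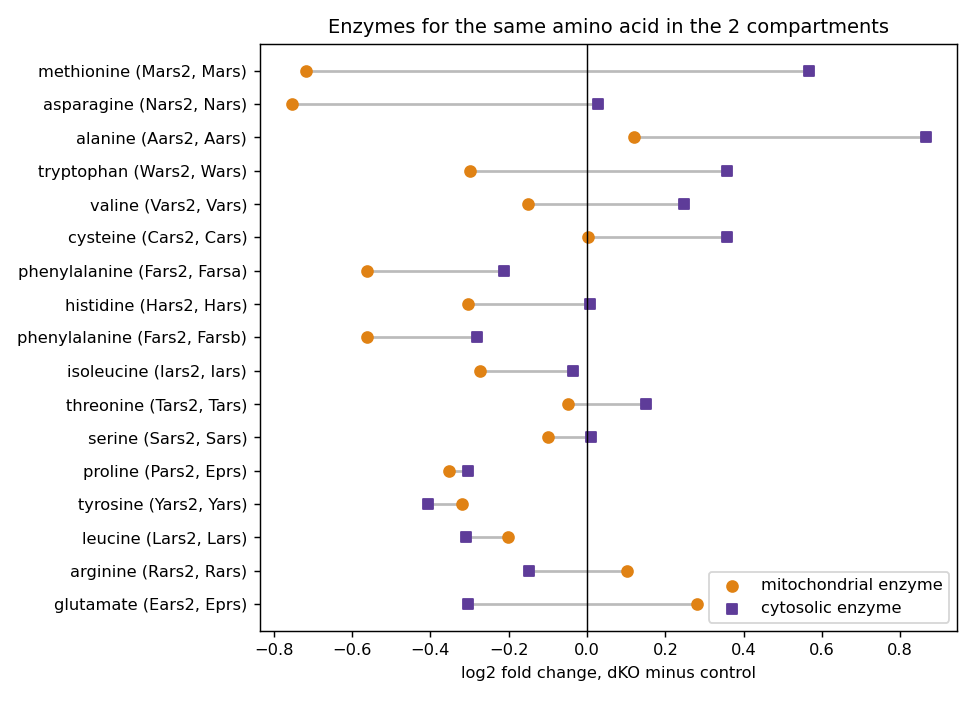
Log2 fold change (dKO minus control) of the mitochondrial and the cytosolic synthetase for each amino acid, joined by a line. The mitochondrial value is the lower of the pair in 13 of 17 pairs, with the widest gap for methionine.

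Proteins that complete mitochondrial charging were measured for 4 of 5 listed genes. These include the amidotransferase subunits that turn misacylated glutamyl-tRNA into glutaminyl-tRNA, since mitochondria have no glutaminyl-tRNA synthetase of their own. None passed, all 4 estimates were below 0 and the median was -0.32. Gatb differed by -0.40 ± 0.17 (SE, adjusted p = 0.229) and Qrsl1 by -0.57 ± 0.31 (SE, adjusted p = 0.407).

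Among 25 of 27 listed genes of tRNA processing and modification, 3 were lower in dKO (12%, against 2.85% of all genes) and 0 higher, with 7 estimates above 0, 18 below and a median of -0.24. With only the 9096 genes brighter than the median gene tested, 5 genes of the list and 584 genes in all were lower. The dKO values lay below all control values in 11 of the 25 (44%, against 10.7% of all genes). Pus7, a pseudouridine synthase, had 6.66, 6.69 and 6.57 in dKO, against 7.45, 7.90 and 7.55 in control (-0.99 ± 0.18 SE, adjusted p = 0.0129). Nsun2, which methylates cytosines in transfer RNA, had 7.86, 8.16 and 8.19 in dKO, against 8.64, 9.12 and 9.16 in control (-0.91 ± 0.20 SE, adjusted p = 0.0312). Adat1, which deaminates an adenosine of alanine transfer RNA, had 6.25, 6.85 and 6.41 in dKO, against 7.40, 7.15 and 7.65 in control (-0.90 ± 0.22 SE, adjusted p = 0.0431). In all 3 genes every dKO pool was below every control pool. The count was 0 without control 2, and 1 without dKO 1 or without control 3. It was also 1 with dKO 1 and control 1 both left out, and 0 in a plain two-sample test. With both pools left out, Pus7 (adjusted p = 0.0589), Nsun2 (0.0771) and Adat1 (0.272) did not pass. Adat1 lost its call without any array other than dKO 2, with an adjusted p of up to 0.167, and it was at 0.0605 with the Xist level as a covariate.

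**Figure D5:**
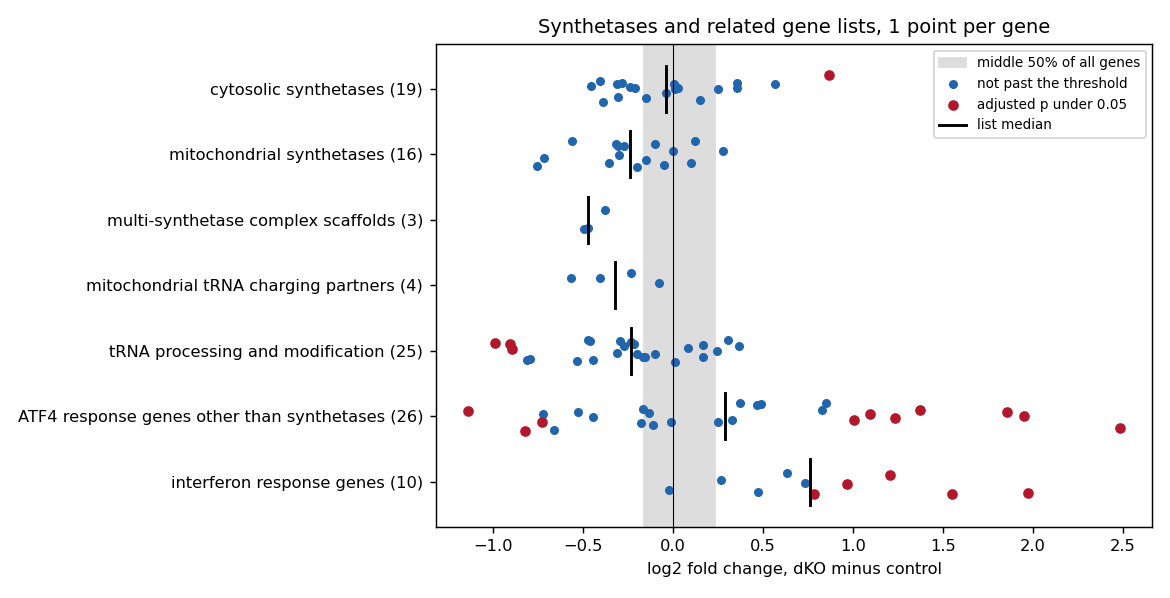
Log2 fold changes (dKO minus control) of the members of each list as points, with genes past the threshold in red, the median of each list as a line and the middle part of all genes (-0.16 to 0.24) as a grey band. The median is -0.04 for cytosolic (of unstable sign) and -0.24 for mitochondrial synthetases, -0.24 for tRNA processing and modification, and 0.29 for the ATF4 response genes.

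The other genes of the ATF4 response, with which the cytosolic synthetases are commonly grouped, went both ways. Of 26 measured, 7 were higher in dKO (26.9%, against 3.12% of all genes) and 3 lower (11.5%, against 2.85%), with a median log2 fold change of 0.29. The higher genes were mainly stress regulators, several of which other stress pathways also induce. They were Vldlr (a lipoprotein receptor, 2.48 ± 0.26 SE, adjusted p = 0.000933), Atf3 (a stress transcription factor, 1.95 ± 0.31 SE, adjusted p = 0.00665), Nupr1 (a stress-induced nuclear protein, 1.85 ± 0.28 SE, adjusted p = 0.00483) and Sesn2 (a leucine sensor, 1.37 ± 0.22 SE, adjusted p = 0.00682). The rest were Atf5 (1.24 ± 0.31 SE, adjusted p = 0.0496), Ddit3 (which encodes CHOP, 1.10 ± 0.20 SE, adjusted p = 0.0122) and Ddit4 (an inhibitor of mTORC1 signalling, 1.004 ± 0.225 SE, adjusted p = 0.0317). Atf5 and Ddit4 lost their calls without any array other than dKO 3, with adjusted p-values of up to 0.145 and 0.106. Ddit3 lost its call without control 3 (0.0506), and Ddit4 also with the replicate block (0.0667).

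The 3 lower genes act in amino acid supply. Other genes of the list that do so did not pass, with estimates on both sides of 0, from -0.72 to 0.47. Phgdh, the first enzyme of serine synthesis, differed by -1.14 ± 0.22 (SE, adjusted p = 0.0155), Shmt2, the mitochondrial serine hydroxymethyltransferase, by -0.82 ± 0.20 (SE, adjusted p = 0.0434) and Slc7a5, a transporter of large neutral amino acids, by -0.73 ± 0.16 (SE, adjusted p = 0.0304). Atf4 itself, named after its values were seen, differed by 0.33 ± 0.18 (SE, adjusted p = 0.385). Without dKO 1, dKO 2, control 2 or control 3 the count of lower genes was 0, and without control 3 that of higher genes was 4. Leaving out dKO 1 and control 1 together gave 4 higher and 0 lower. Vldlr, Atf3, Nupr1 and Sesn2 passed with any single array left out.

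Wars is an interferon-inducible synthetase, and both groups had received pI-pC. Of 10 measured interferon response genes, 5 were higher in dKO (50%, against 3.12% of all genes) and 0 lower, with a median of 0.76. They were Usp18, a protease that removes ISG15 (1.97, adjusted p = 0.00121), Ifit1 (1.55, adjusted p = 0.00344), Rsad2 (1.20, adjusted p = 0.00713), Gbp2 (0.97, adjusted p = 0.0165) and Irf1 (0.79, adjusted p = 0.0294). The count was 3 without dKO 2, control 1 or control 2 and 2 without dKO 1 and control 1 together. A plain two-sample test called 0 of them.

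Markers of other blood cells moved between the groups, and their part in the synthetase values was not tested. Of the T and NK cell markers 5 of 8 were higher in dKO (62.5%, against 3.12% of all genes). The 8 had mean log2 levels of 8.22 to 8.37 in dKO pools and 6.55 to 7.14 in control pools. Of the megakaryocyte markers 4 of 5 were higher (80%, against the same 3.12%), with levels of 10.12 to 10.39 in dKO and 8.10 to 8.40 in control. Of the mast cell and basophil markers 3 of 4 were higher (75%), with levels of 8.29 to 9.51 in dKO and 6.73 to 7.02 in control. Without dKO 1 and control 1 together, Cd3d of the T and NK cell list (adjusted p = 0.075) and Cpa3 of the mast cell list (0.0564) did not pass. Of the neutrophil and monocyte markers 3 of 8 were lower (37.5%, against 2.85% of all genes). Levels of this list were 6.56 to 7.86 in dKO and 8.83 to 9.32 in control. None of 4 B cell markers and none of 3 erythroid markers passed. None of the genes of the sorted surface proteins that were measured passed either, with Slamf1, which encodes CD150, at 0.78 and Cd48 at 0.20. Kit, which was listed with them although the stated gate does not use it, was at -0.29. Cd48 was named after its values were seen.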

How the data were processed

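The deposited values are log2 signals of 45101 probe sets on 6 Affymetrix mouse arrays, which the authors produced by RMA according to the submitters' processing notes (version not given). RMA corrects background, normalizes between arrays and summarises probes, and it compresses differences of dim probe sets. Per the labels' protocols, RNA was extracted with Trizol and amplified in 2 rounds with a Nugen kit, which can raise the spread of low-abundance transcripts. The titles of the samples gave their groups.

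The platform annotation gave 1 symbol to 34945 probe sets, and the brightest of them per gene gave 18193 genes. Dars had no such probe set in the table used, and is not analysed here. R 4.3.3 and limma 3.58.1 (lmFit, then eBayes at default settings) compared dKO with control in a two-sided test. P-values were adjusted by Benjamini-Hochberg over the 18193 genes, and 0.05 was the threshold. The code of the fit was checked on simulated data with independent normal noise for each gene, which is not a test of the results given here. Errors are SD over 3 arrays, which describes the spread between pools of mice, or SE of the fit. The SE is that of the difference between groups, with a variance that eBayes moderates over all genes. Replicate numbers were not treated as pairs, since deviations of same-numbered arrays correlated at 0.06, -0.00 and 0.02.

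The members, the other lists and the rule for named genes were chosen with earlier results of these data known. All members may be named, and from other lists those past the threshold, or else the 2 with the smallest p, and always Myc and Mycn. Atf4 and Cd48 are exceptions. The alternatives covered the choice of probe set, dim genes, scaling, variance model, array weights, the replicate block, a plain two-sample test, the threshold, each array left out and the pools with Xist signal. Promoters came from a RefSeq table of GRCm38.p6 and were scanned for both motifs on both strands.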

Additional observations from a re-analysis of the deposited data

How the results depend on the processing

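With 3 arrays per group, calls near the threshold were lost or gained when 1 pool was left out. The number of synthetases higher in dKO was 1, but 0 with a plain two-sample test, at a threshold of 0.01 and without both pools with Xist signal, and it ranged from 0 to 1 when 1 array was left out. The number lower was 0, but 1 with array weights and at a threshold of 0.1 (Nars2), 1 without both pools with Xist signal (Mars2), and 0 to 1 when 1 array was left out. Aars kept its direction in every alternative, with an adjusted p of 0.0676 in the plain test, 0.0398 with the replicate block and 0.0253 with the Xist level as a covariate. The ATF4 genes higher in dKO (7) numbered 0 in the plain test, 4 at 0.01, 4 without both Xist pools, and 4 to 7 with 1 array left out. Those lower (3) numbered 1 without probe sets of shared sequence, 1 with the replicate block, 0 in the plain test, 0 at 0.01, 0 without both Xist pools, and 0 to 3 with 1 array left out. The tRNA processing genes lower in dKO (3) numbered 0 in the plain test and at 0.01, 5 with the filter on dim genes and at 0.1, and 2 with the replicate block, where Adat1 was at 0.0768. The interferon genes higher in dKO (5) numbered 0 in the plain test, 3 at 0.01 and 4 with the replicate block.

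The cytosolic median of -0.04 became 0.008 without probe sets of shared sequence and 0.009 with array weights, and ranged from -0.17 to 0.01 (0.014 without control 3) with 1 array left out. The mitochondrial median stayed below 0 throughout. Over all genes, 567 were higher and 519 lower, against 848 and 849 with array weights, 46 and 24 in the plain test, 256 and 181 at 0.01, 794 and 819 at 0.1, 336 and 236 without control 2, 331 and 245 without control 3, 388 and 295 without dKO 1, and 303 and 275 without both Xist pools. A filter on dim genes left 9096 genes, of which 547 were higher and 584 lower, and 29 members. Between 0 and 5 members below the threshold changed sign in an alternative.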
